A study of Danio rerio with 3 samples.

Results

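The brain of fear-conditioned adult zebrafish was compared with that of naive fish on whole-transcript arrays, as the log2 signal of the fear-conditioned array minus that of the naive array. Probe sets, the groups of array probes that read 1 transcript, were used where they had exactly 1 gene symbol, and those of 1 gene were averaged. A gene was kept where its brightest array was at or above 3.45, the lower quartile of the deposited values, here called the dim limit. This left 17958 of 19260 named genes, and the other 1302 were too dim on all 3 arrays. All fish were 6 months old and kept at 28 °C. Naive fish lived in a daily cycle of 14 h of light and 10 h of dark. Fear-conditioned fish, titled learning-trained in the labels, had gone through inhibitory avoidance learning, and their light schedule was not given in the sources used here, although the labels of every group carry the same light-dark tag. Another array, of fish under extended light (24 h of light, 0 h of dark) for 3 days as a sleep deprivation model, is given beside them as a value only.

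With 1 array for each condition, no difference here has a replicate check, a test or an error, and the number of arrays limits the precision. Strain, sex, the number of fish per array and the time between training and sampling were not given in the sources used here. The RNA came from whole brain tissue, in which fewer cells of a type and less RNA per cell cannot be told apart. Values are read as log2, the base of which is not stated, and levels of different genes are not compared, because each probe set has its own brightness.

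In inhibitory avoidance an animal comes to hold back a movement that was followed by an aversive stimulus. Such training is known to act through glutamate receptors, the calcium- and cAMP-dependent kinases and the transcription factor CREB, which switch on early-response genes such as fos, egr1, npas4 and arc, and to raise stress hormones. Early-response transcripts appear within minutes and are short-lived, so their level depends on when the tissue was taken.

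Neuronal, astroglial and myelin marker genes were present on both arrays, and the neuronal and astroglial lists had similar mean signals on each. The mean signal of 35 neuronal marker genes was 9.09 on the naive and 9.17 on the fear-conditioned array, and that of 32 genes of radial astroglia, the neural stem and support cells of the fish brain, 9.05 and 8.99. The synaptic gene snap25a was at 11.98 and 11.90, the inhibitory neuron gene gad1b at 9.61 on both, and the myelin gene mbpa at 11.76 and 11.86. Endothelial cdh5 was at 6.85 and 6.88. These defining markers were above the dim limit on both arrays and differed little. The astroglial gene gfap (8.30 and 9.05) and the microglial genes, described further on, differed more. Of the neuronal list, 21 of 35 genes lay above 0, 5 below and 9 at exactly 0. Among them tuba1a, an alpha-tubulin gene, differed by at least 1.5-fold (6.36 naive, 6.95 fear-conditioned).

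Few genes differed. At least 2-fold higher on the fear-conditioned array were 44 genes, 0.245% of those kept, and at least 2-fold lower were 33, or 0.184%. At a 1.5-fold threshold the counts were 149 higher (0.830%) and 137 lower (0.763%). The difference was exactly 0 for 8294 genes, above 0 for 5492 and below 0 for 4172, and the 5th and 95th percentiles of all differences were -0.24 and 0.25. Such exact ties made up 46.2% of the kept genes, and why was not tested. Here and below, a tie is not read as showing that a gene was alike in the fish compared. The 44 higher genes had a median difference of 1.27 and reached 5.28, and the 33 lower ones had a median of -1.22 and reached -2.73. These sizes set the scale on which each gene and list below is read. At these shares, a short list with 0 genes or a single gene past a threshold is not read as a result about that list.

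Some of these genes were close to the dim limit on the array where they were lower. The median naive signal was 4.86 over the 44 higher genes, 6.66 over the 33 lower ones and 6.64 over all kept genes, and since the naive signal enters the difference that chose these genes, nothing is read from this order. Of the higher genes, 1 was below the dim limit on the naive array and 12 were within 1 log2 unit above it, so the size of those differences is uncertain. Of the lower genes, 3 were below it on the fear-conditioned array and 11 within 1 unit above, so the same holds for them. Genes known only by a clone or locus name made up 10.8% of the kept genes, 6 of the 44 and 12 of the 33. By contrast, 8 lists of skin, mucus, gill, bone, tooth, connective tissue and muscle genes held 273 kept genes, 1.52% of all, and 16 of the 44 higher genes but 1 of the 33 lower. These lists were chosen with earlier results of these data known, and some list members were added after their values were seen. The share of higher genes in them is therefore partly set by that choice and is given as a description only.

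**Figure D1:**
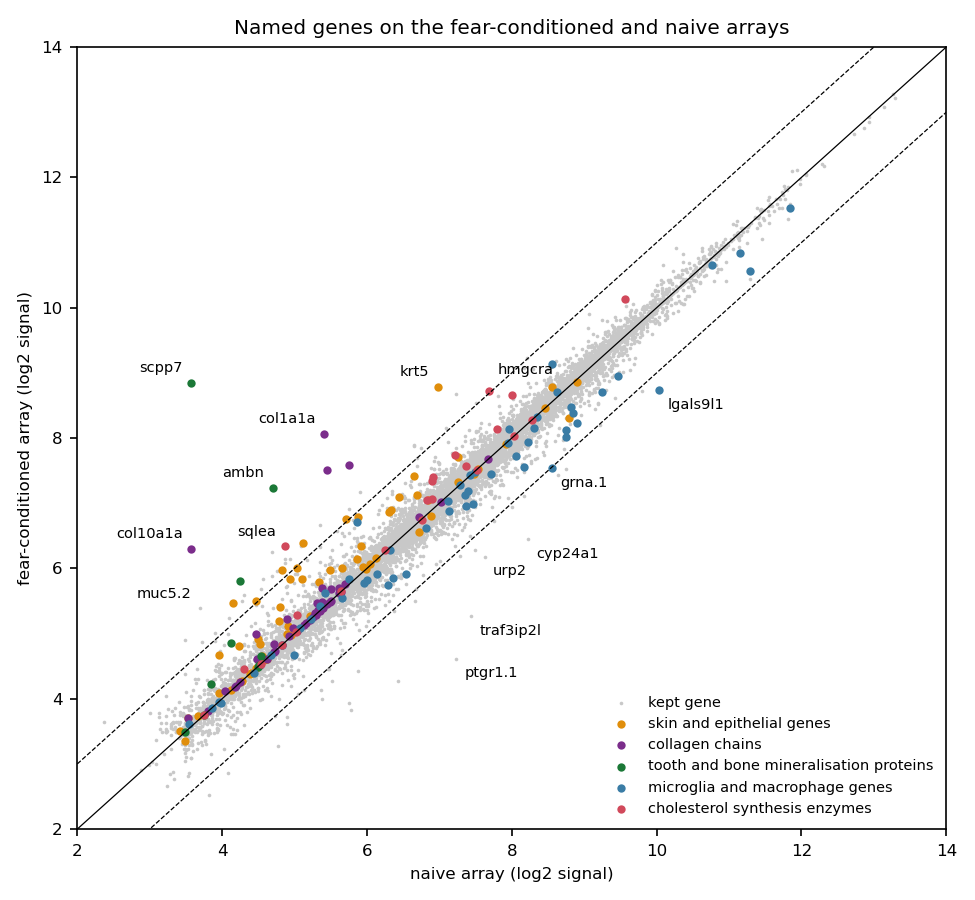
Signal of each of the 17958 kept genes on the naive array (horizontal axis, log2) and on the fear-conditioned array (vertical axis, log2); the solid line marks equality, the dashed lines a 2-fold difference, and 5 gene lists are coloured. Several tooth, collagen and skin genes lie above the upper dashed line, with scpp7 at 3.57 and 8.85, and most coloured microglial genes lie below the line of equality.

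The highest difference of all belonged to a gene of mineralised tissue. The gene scpp7, a secretory calcium-binding phosphoprotein of the family that builds tooth and bone matrix, was at 3.57 on the naive, 8.85 on the fear-conditioned and 3.22 on the sleep-deprived array. This was 38.8-fold higher than on the naive array, where the signal was barely above the dim limit. Ameloblastin (ambn), which encodes a protein of the enamel-type matrix, was at 4.70, 7.24 and 4.83 in the same order, 5.81-fold higher than naive. Enamelin (enam), another matrix protein of that family, was at 4.25 on the naive and the sleep-deprived array and at 5.80 on the fear-conditioned one. All 3 genes therefore stood apart on a single array.

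The list of tooth and bone mineralisation proteins had 19 names, of which 11 had a probe set and 10 were kept. Its mean signal was 4.13 on the naive, 5.19 on the fear-conditioned and 4.15 on the sleep-deprived array. Of the 10, 3 were higher by 2-fold or more, 4 by 1.5-fold or more, and 0 lower, with a median difference of 0.25 against 0 over all kept genes. This median depended on the dim filter, at 0.11 without one and 2.54 with a filter at the median of the deposited values, 4.99. The latter filter keeps scpp7, ambn and enam only through the fear-conditioned array, so nothing is read from its higher median. The fourth gene at least 1.5-fold higher was scpp1, another phosphoprotein of the family, at 4.13 on the naive and 4.86 on the fear-conditioned array. The enamel protease gene mmp20b was at 3.84 and 4.22. In contrast, scpp5, odam, spp1 and mmp20a, which belong to the same matrix or its processing, had exactly equal values on both arrays. No difference was thus measured for these members, although exact ties were common over all kept genes. In the gene order of the RefSeq assembly GRCz12tu, scpp7 and ambn are direct neighbours among the 17465 kept genes that could be placed. Of adjacent pairs, only 2 had both genes at least 2-fold apart, and this was the one in which both had the same direction.

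Type I collagen, the main fibrous protein of bone, tooth dentine, skin and tendon, was also among the highest. Its chain genes were higher on the fear-conditioned array: col1a1a at 8.07 against 5.41 on the naive array, 6.31-fold higher. For col1a2 the values were 7.51 against 5.44, 4.19-fold higher, and for col1a1b 7.58 against 5.75. On the sleep-deprived array these genes were at 5.55, 5.53 and 5.88, close to naive. The 3 chains that assemble into the same fibril thus shared their direction, with sizes from 3.56-fold for col1a1b to 6.31-fold for col1a1a.

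The type X collagen gene col10a1a, known from hypertrophic cartilage and, in fish, from bone-forming cells, was at 3.57 on the naive and 6.30 on the fear-conditioned array. Its 3 probe sets gave differences of 0.86, 2.84 and 4.48, so the direction was shared and the size was not. These 4 chains were the ones at least 2-fold higher among 46 kept collagen genes. The others lay between -0.01 and 0.52, with the type VI chain gene col6a2 highest among them (4.47 naive, 4.99 fear-conditioned). Over the list, 23 genes were above 0, 1 below and 22 at exactly 0, and the median was 0.00. The cartilage collagen gene col2a1a had the same value, 4.73, on all arrays.

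Neighbouring lists showed much smaller differences. In the list of osteoblast and cartilage genes, col10a1a was the 1 gene of 29 at least 1.5-fold higher, and sp7, the transcription factor gene that defines osteoblasts, was at 4.55 and 4.61. Among 41 collagen processing and fibroblast genes, 1 was at least 1.5-fold higher and 0 lower: thy1, a surface glycoprotein gene, at 6.51 and 7.11. The procollagen C-proteinase enhancer genes pcolcea and pcolceb and the matrix protein gene sparc, picked after their values were seen, were at 0.50, 0.50 and 0.41. The inhibitor gene paplnb, which encodes a papilin of the basement membrane, was in no list and was at 4.76 on the naive and 5.96 on the fear-conditioned array.

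Skin and epithelial genes were higher over much of their list. Of 74 names, 70 had a probe set and 63 were kept. Of these, 6 were higher by 2-fold or more and 14 by 1.5-fold or more, against 0.245% and 0.830% over all kept genes. Lower by 1.5-fold were 0. There were 45 above 0, 6 below and 12 at exactly 0, with a median of 0.14 against 0 over all kept genes. The median was 0.09 with no dim filter and 0.35 with a filter at the median of the deposited values. The latter filter keeps some members, such as epcam, only through the fear-conditioned array, so nothing is read from its higher median. The mean signal of the list was 5.53 on the naive, 5.86 on the fear-conditioned and 5.36 on the sleep-deprived array.

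The keratin gene krt5, which marks the basal layer of the epidermis, was at 6.97 on the naive, 8.79 on the fear-conditioned and 6.67 on the sleep-deprived array. The epithelial adhesion gene epcam was at 4.15, 5.47 and 3.59 in the same order, and cdh1, which encodes E-cadherin, at 5.12, 6.40 and 3.87. Both were thus lowest on the sleep-deprived array, with naive in the middle. Genes of desmosomes and of the envelope of surface cells were among the 14 as well: plakophilin pkp3a (1.14), periplakin ppl (0.98) and envoplakin evpla (0.90). So were the tight junction gene cldnb (1.04) and the keratin gene krt97 (1.03). The keratin gene krt4 of the outer epidermal layer was at 0.90, and tp63, the transcription factor that defines basal epidermis, at 0.45 (5.34 naive, 5.79 fear-conditioned). The simple-epithelium keratin genes krt8 and krt18b, also listed, were at -0.05 and -0.48. Of skin-related genes outside the lists, the aquaglyceroporin gene aqp3a was at 5.09 on the naive and 6.34 on the fear-conditioned array.

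The mucus list had 1 gene at least 1.5-fold higher and 1 lower, and gill genes were level to within 1.5-fold. The gel-forming mucin gene muc5.2 was at 3.69 on the naive and 5.39 on the fear-conditioned array. In the same list of 15 mucus and secretory cell genes, lygl2, a goose-type lysozyme gene, was the opposite, at 4.90 and 3.62, and its paralogue lygl1 was at 4.87 on all arrays. Both muc5.2 and lygl2 were close to the dim limit on the array where they were lower. Neither is read as a result about the list. Outside that list, the intelectin gene itln4, whose product binds microbial sugars, was at 4.86 and 6.14. Of 20 gill, ionocyte and thyroid genes, 0 were at least 1.5-fold apart, and the ionocyte genes foxi3a and foxi3b were equal on both arrays. Over all genes 0.830% were higher and 0.763% lower, so a count of 0 among 20 is not read as a result.

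Among 58 fast skeletal muscle genes, 2 were higher by 2-fold or more, 3 by 1.5-fold or more, and 0 were lower by 1.5-fold. There were 24 above 0, 2 below and 32 at exactly 0, with a median of 0. The muscle parvalbumin gene pvalb2 was at 3.48 on the naive array, next to the dim limit, and 4.90 on the fear-conditioned array. Muscle creatine kinase (ckma) was at 4.87 and 6.08, and atp2a1l, a calcium pump gene of the muscle reticulum, at 4.47 and 5.44. The defining fast-muscle genes mylpfa, tnnt3b and acta1b had exactly equal values on both arrays, at 4.13, 4.99 and 3.95. The list's mean signal was 4.77 on the naive and 4.91 on the fear-conditioned array. Whether skin, tooth, bone or muscle tissue was taken along with the brain on the fear-conditioned array was not tested.

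**Figure D2:**
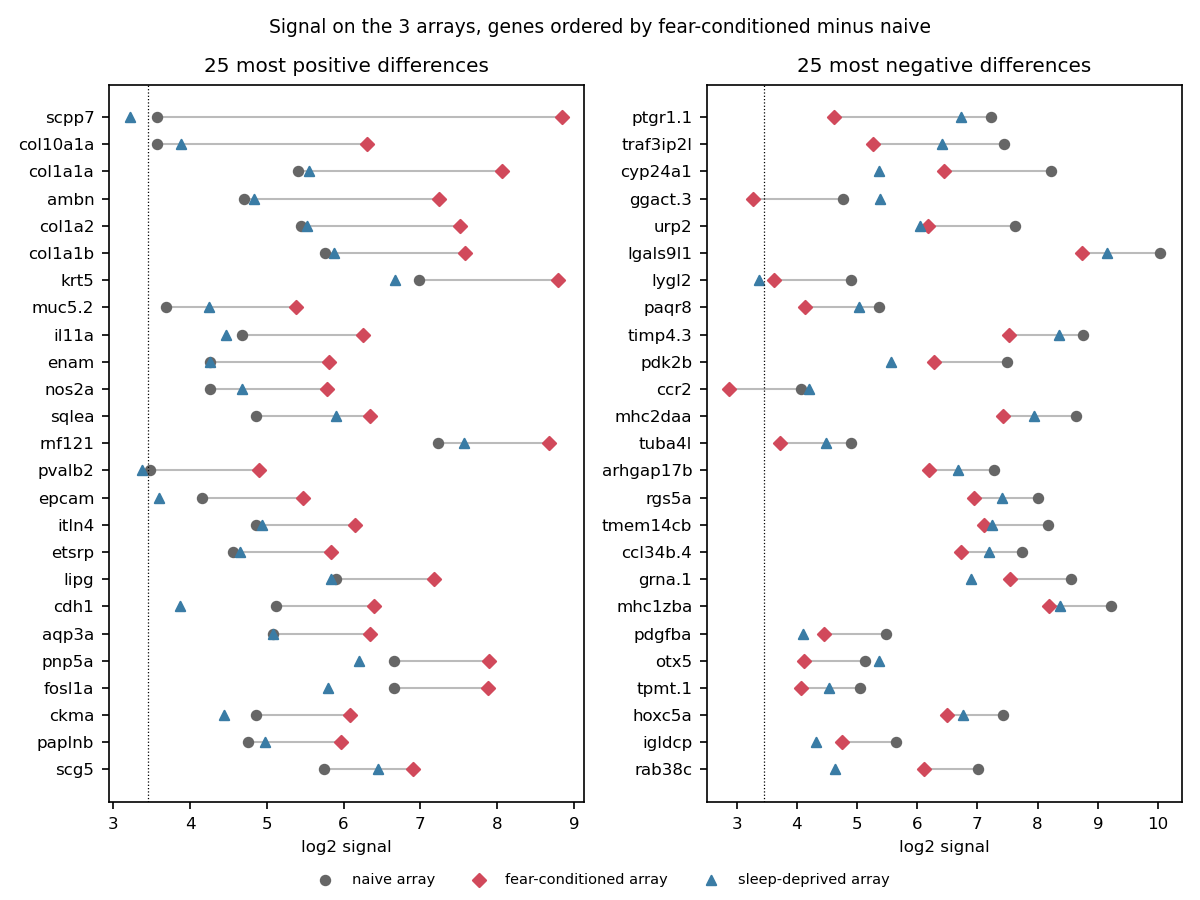
Signal (log2) on the naive, fear-conditioned and sleep-deprived arrays for the 25 genes with the most positive difference between fear-conditioned and naive (left) and the 25 with the most negative (right), without clone or locus names; each marker is 1 array and the dotted line is the dim limit of 3.45. Tooth, collagen and skin genes come first on the left, and scpp7, col10a1a and pvalb2 are next to the dim limit on the naive array.

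Of the other highest genes, several encode signalling proteins. The cytokine gene il11a, a ligand of the gp130 receptor known in zebrafish for its part in fin and heart regeneration, was at 4.68 on the naive, 6.25 on the fear-conditioned and 4.47 on the sleep-deprived array. The leptin receptor gene lepr, a relative of that receptor family, was at 6.21, 6.98 and 5.78. In the list of 32 gp130 cytokine signalling genes these 2 were higher by 1.5-fold or more and 0 lower, and the median was 0. The difference was therefore in 1 ligand and 1 receptor, not in the list.

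The inducible nitric oxide synthase gene nos2a was at 4.26 on the naive and 5.79 on the fear-conditioned array, and its paralogue nos2b at 4.28 on all 3. The endothelial lipase gene lipg was at 5.90 and 7.17, the purine nucleoside phosphorylase gene pnp5a at 6.65 and 7.89, and rnf121, which encodes a membrane-bound ubiquitin ligase, at 7.23 and 8.67. Vascular genes past a threshold lay in both directions. The transcription factor gene etsrp, which specifies endothelium and myeloid cells in the zebrafish embryo, was at 4.56 and 5.83, and foxf2b, a gene of brain pericytes and their precursors, at 4.54 and 5.68. The lipid transporter gene mfsd2ab of brain endothelium was at 7.56 and 8.16. The pericyte gene rgs5a, a regulator of G-protein signalling, was at 8.00 and 6.94, and the growth factor gene pdgfba, whose family recruits pericytes, at 5.47 and 4.46. Over 50 endothelial and mural cell genes, a list that does not hold pdgfba, 2 were higher and 1 was lower by 2-fold or more. Over all kept genes these shares were 0.245% and 0.184%, and so few genes are not read as a result about the list. In that list 11 were above 0 and 23 below, against 5492 and 4172 over all kept genes.

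The early-response genes that mark recent neuronal activity showed no common direction. Of 57 kept, 2 were higher by 2-fold or more and 0 lower by 1.5-fold or more, with 27 above 0, 20 below and 10 at exactly 0, and a median of 0. The transcription factor gene fosl1a, of the Fos family, was at 6.65 on the naive, 7.88 on the fear-conditioned and 5.79 on the sleep-deprived array. The other was mych, a Myc family gene, at 6.70, 7.70 and 5.44. Neither belongs to the genes most used as activity markers in brain.

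Those markers differed little. The values of fosab were 8.80 on the naive and 9.23 on the fear-conditioned array, a difference of 0.43, and those of npas4a, a transcription factor induced by depolarization, 9.53 and 9.36. For egr1 both arrays were at 9.56, and for bdnf, a neurotrophin gene, both were at 7.07. The paralogue npas4b was at 5.56 and 5.97. A gene under the symbol arc was not analysed here. None of these activity markers reached 1.5-fold between the fear-conditioned and naive arrays. On the sleep-deprived array fosab was at 7.56, npas4a at 8.27, egr1 at 9.65 and bdnf at 6.96.

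In the machinery upstream of these genes no difference reached 1.5-fold. Among 76 kept genes of plasticity kinases, CREB factors and scaffolds, 0 were at least 1.5-fold apart in either direction, against 0.830% higher and 0.763% lower over all genes. The kinase gene camk2a was at 10.73 and 10.75, and creb1a at 6.72 and 6.80. The same count of 0 held for 47 glutamate receptor genes, 46 genes of GABA and glycine signalling, 78 genes of synaptic vesicles and release, 97 channel genes, and 79 genes of monoamine and acetylcholine signalling. Their medians were 0.02 and 0.05 for the glutamate and GABA lists and 0 for the others. More genes lay above 0 than below: 28 and 5 for glutamate receptors, 30 and 6 for GABA and glycine, and 42 and 17 for channels. The counts were 36 and 17 for the plasticity list, 35 and 22 for synaptic vesicles and release, and 27 and 20 for the monoamine list. Over all kept genes they were 5492 and 4172. In the monoamine list th, the tyrosine hydroxylase gene of catecholamine neurons, was at 5.81 on all arrays, and tph2, the serotonin synthesis gene, at 7.13 and 6.89. Synaptic and transmitter genes thus reached neither threshold on these single arrays, which does not show that they were alike.

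Peptide genes held a few exceptions. Oxytocin (oxt), a hypothalamic peptide involved in social and stress responses, was at 9.06 on the naive, 9.90 on the fear-conditioned and 10.00 on the sleep-deprived array. Vasopressin (avp), its relative, was at 7.95, 8.22 and 8.33. The gonadotropin-releasing hormone gene gnrh3 was at 6.35 and 7.19. Both hypothalamic hormones were thus higher on the fear-conditioned than the naive array, oxt by 1.5-fold or more and avp by less.

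The most negative of the 73 neuropeptide genes was urp2, a urotensin II related peptide made in zebrafish by neurons that contact the cerebrospinal fluid along the spinal canal and hindbrain. It was at 7.62 on the naive, 6.18 on the fear-conditioned and 6.05 on the sleep-deprived array. Its paralogue urp1 was at 5.48 and 5.39, and uts2b at 5.35 on all 3. Of 17 genes of the urotensin system and of such neurons, urp2 was the 1 at least 1.5-fold apart. Among 35 kept Hox genes, a list added after values were seen and known for marking hindbrain and spinal cord levels, 2 were above 0, 19 below and 14 at exactly 0, with 3 at least 1.5-fold lower. They were hoxc5a (7.42 naive, 6.49 fear-conditioned), hoxb6b (5.04 and 4.44) and hoxc6a (6.11 and 5.52), of which hoxc6a and hoxc5a are neighbours. Whether the amount of caudal hindbrain or spinal cord in the dissection differed was not tested.

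The secretory chaperone gene scg5, which assists peptide hormone processing, had a mean of 5.75 on the naive and 6.90 on the fear-conditioned array. Its 2 probe sets disagreed, the dimmer at 2.72 and the brighter at -0.41, so scg5 has no settled direction. It is the 1 gene among the 44 higher whose probe sets had opposite signs. The hypocretin gene hcrt, which marks wake-promoting neurons, was at 5.04 on all arrays.

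The stress axis list had a median of 0 over 50 genes, with 19 above 0, 11 below and 20 at exactly 0. At least 1.5-fold higher were 2, oxt and lepr, and 0 were lower. The corticotropin-releasing hormone gene crhb was at 4.33 on the naive and 4.18 on the fear-conditioned array, its target pomca at 5.49 on both, and the glucocorticoid receptor gene nr3c1 at 8.79 and 8.59. On both arrays crhb was within 1 log2 unit above the dim limit, with its 2 probe sets at -0.30 and 0. The receptor co-chaperone gene fkbp5, which glucocorticoids induce, was at 10.23 and 10.56, and at 9.14 on the sleep-deprived array. Clock genes, which follow the time of day, had a median of 0.02 over 49, with the activator gene hlfb at least 1.5-fold higher (8.01 and 8.61) and 0 lower.

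**Figure D3:**
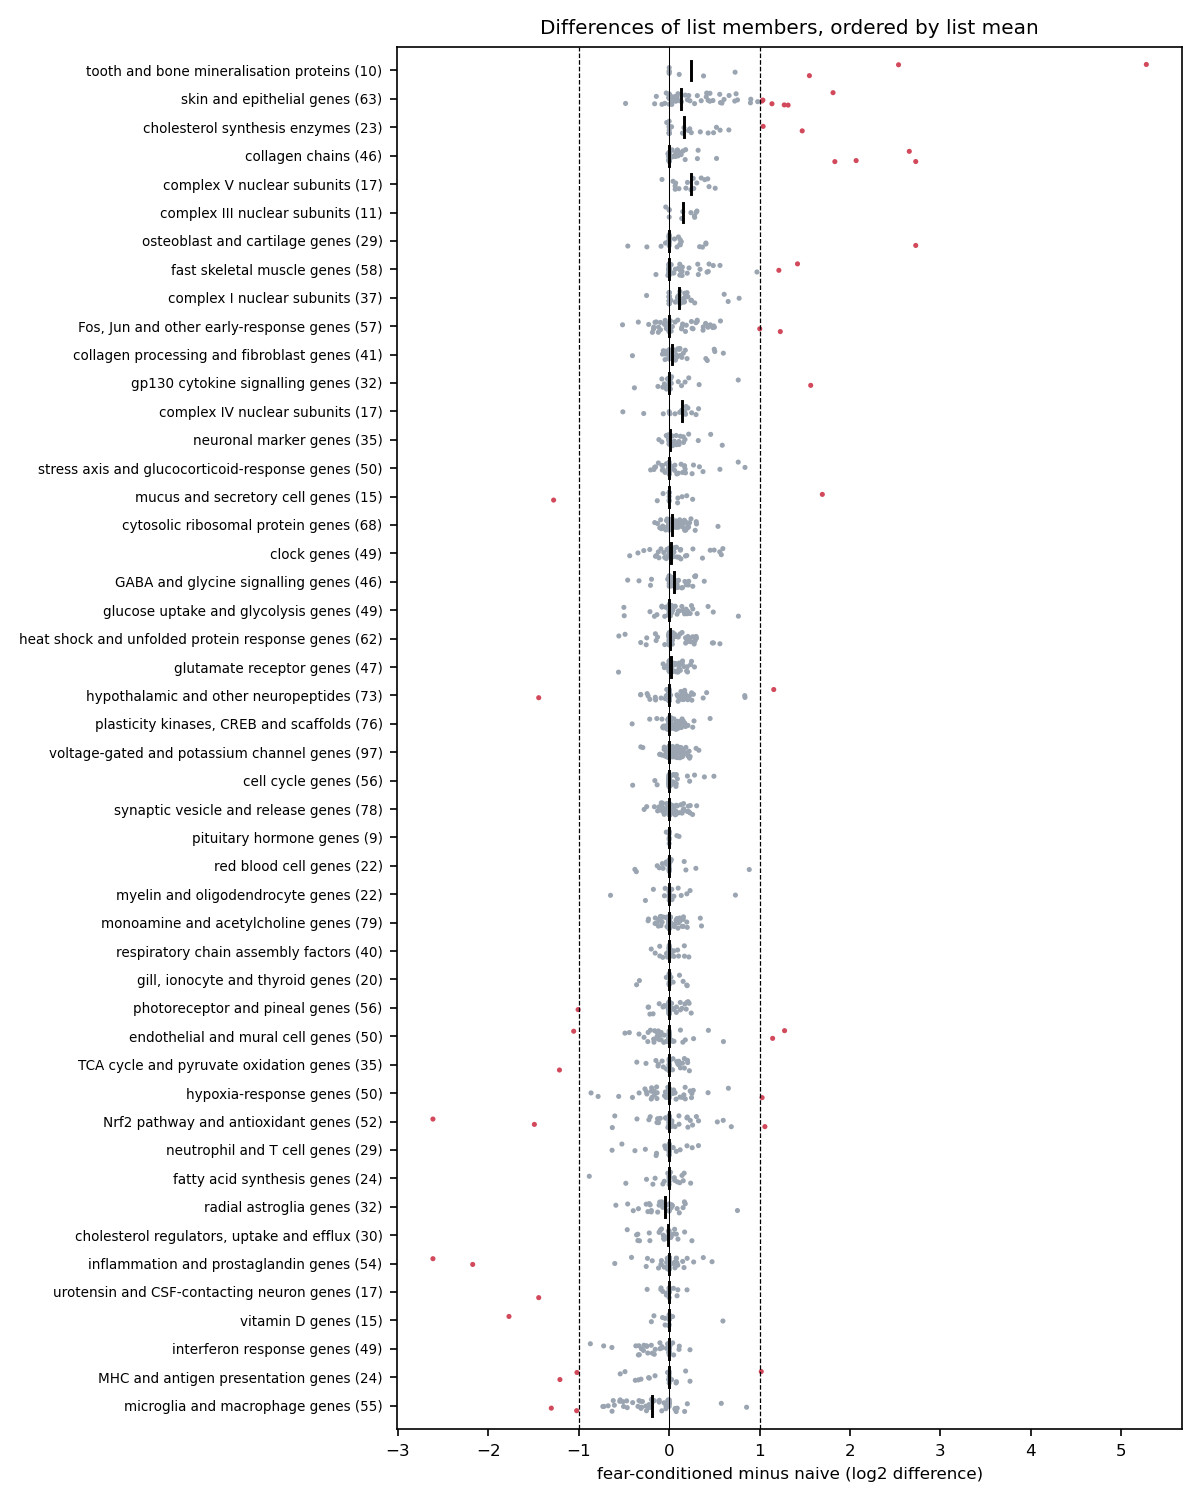
Difference between the fear-conditioned and naive arrays (log2) of each kept member of the gene lists; a point is 1 gene, red where at least 2-fold apart, black ticks are list medians, numbers in brackets are members kept, and dashed lines mark 2-fold. Most medians lie on 0, while the skin, cholesterol, tooth and complex I, III, IV and V lists lie to the right and the microglial list, at -0.19, to the left. The list of complex II, with a median of 0.00, and that of Hox genes are not drawn.

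Enzymes at several steps of cholesterol synthesis were higher on the fear-conditioned array. The brain makes its own cholesterol, and the genes of this pathway are known to be switched on together by the sterol-sensing factor SREBP-2. Of 23 kept enzymes, 2 were higher by 2-fold or more, 3 by 1.5-fold or more, and 0 were lower by 1.5-fold, with 14 above 0, 1 below and 8 at exactly 0. The median was 0.16, and the mean signal was 6.52 on the naive, 6.80 on the fear-conditioned and 6.67 on the sleep-deprived array.

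The rate-limiting reductase gene hmgcra was at 7.68 on the naive, 8.72 on the fear-conditioned and 7.57 on the sleep-deprived array, and its paralogue hmgcrb at 6.83, 7.05 and 6.83. Squalene epoxidase, a later control point, is encoded by sqlea, at 4.87, 6.34 and 5.90, and by sqleb, which was at 3.75 on all 3. The demethylase gene cyp51 was at 8.00, 8.66 and 8.45. At both control points 1 paralogue was at least 2-fold higher. Since sqleb was tied and within 1 log2 unit above the dim limit, nothing is read from its lack of a difference. Smaller values, chosen after they were seen, were 0.43 for acat2 and 0.52 for hmgcs1 at the start of the pathway and 0.56 for msmo1, 0.49 for tm7sf2 and 0.34 for sc5d near its end, while mvk, fdps and lss in the middle were at exactly 0.

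Genes that regulate or move cholesterol leaned the other way, by small amounts. Of 30 regulators, uptake and efflux genes, 0 were at least 1.5-fold apart, 8 were above 0 and 16 below, with a median of -0.01. The transcription factor gene srebf2, which encodes SREBP-2, was at 0.02. Among the efflux genes, the transporter genes abca1a, abca1b and abcg1 were at -0.33, -0.35 and -0.35 and the apolipoprotein gene apoeb at -0.46, values chosen after they were seen. The gene apoeb is also a marker of microglia, whose genes are described further on. Of 24 fatty acid synthesis genes, lpin1a, a phosphatidate phosphatase gene, was the 1 at least 1.5-fold apart (8.72 naive, 7.84 fear-conditioned).

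**Figure D4:**
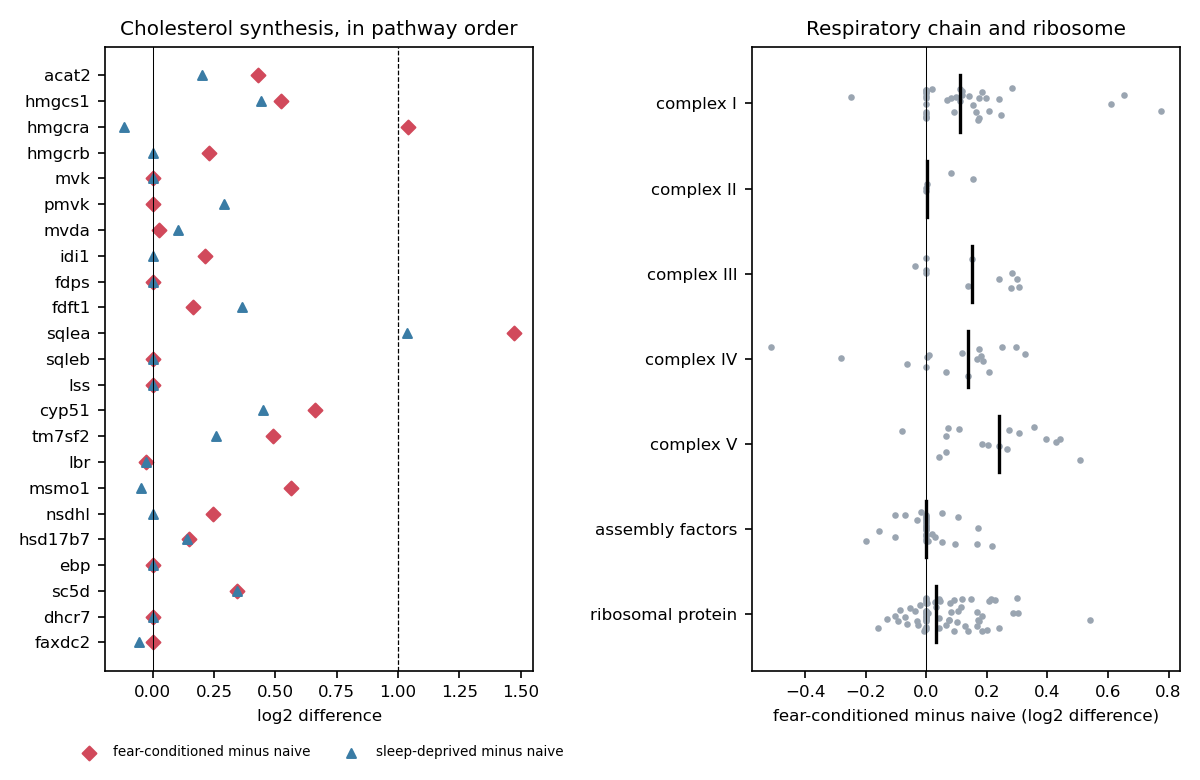
Left, log2 difference from naive of 23 cholesterol synthesis enzymes in approximate pathway order for the fear-conditioned (diamonds) and sleep-deprived (triangles) arrays, which share the naive array; right, fear-conditioned minus naive for nuclear genes of the respiratory complexes, their assembly factors and cytosolic ribosomal proteins, each point 1 gene and black ticks medians. The enzyme genes sqlea and hmgcra reach 2-fold, and complex V has the highest median, 0.24, with assembly factors at 0.

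Most nuclear genes of the respiratory chain were higher by small amounts. All were read on the same 2 arrays, so the subunits are not repeats of each other. Over the 87 kept subunits of complexes I to V, 63 were above 0, 6 below and 18 at exactly 0, with a median of 0.12 against 0 over all kept genes. Over all kept genes 5492 were above 0 and 4172 below. Some other lists, such as that of glutamate receptors, also had more genes above 0 than below, while the microglial list had fewer. The median was 0.11 for 37 genes listed under complex I, 0.15 for 11 under complex III, 0.14 for 17 under complex IV and 0.24 for 17 under complex V, the ATP synthase. For the 5 genes of complex II it was 0.00. Of the 17 ATP synthase genes 16 were above 0, led by atp5mc1, a gene of the membrane ring, at 8.33 and 8.84.

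At least 1.5-fold higher were 3 genes, all in the list used here for complex I: ndufa9a (6.93 naive, 7.71 fear-conditioned), ndufa4a (10.27 and 10.92) and ndufa6 (7.50 and 8.11). The place of ndufa4a in that list rather than in that of complex IV was not tested. The complex IV gene cox4i1l was the most negative, at -0.51. Assembly factors, which build the complexes without remaining in them, had a median of 0 over 40 genes. Genes of cytosolic ribosomal proteins had a median of 0.03 over 68, with 37 above 0, 14 below and 17 at exactly 0. Of these, 0 were at least 1.5-fold apart.

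Upstream of the chain, the kinase gene pdk2b, whose product holds back pyruvate entry into the mitochondrial cycle, was at 7.50 on the naive, 6.28 on the fear-conditioned and 5.57 on the sleep-deprived array. Its paralogue pdk2a was at 8.35, 8.09 and 7.92, and pdk1 at 9.19, 9.18 and 9.18. In the list of 35 genes of the TCA cycle and pyruvate oxidation, pdk2b was the 1 at least 1.5-fold apart. Of 49 genes of glucose uptake and glycolysis, gapdh was the 1 at least 1.5-fold higher (5.52 and 6.29) and 0 were lower.

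Genes of microglia and macrophages, the immune cells of the brain, were lower over most of their list. Of 55 kept, 39 were below 0, 8 above and 8 at exactly 0, and the median was -0.19 against 0 over all kept genes. Lower by 2-fold or more were 2 and by 1.5-fold or more 8, against 0.184% and 0.763% over all kept genes. Higher by 1.5-fold was 1, against 0.830%. The mean signal was 7.23 on the naive, 7.01 on the fear-conditioned and 6.79 on the sleep-deprived array, so naive was the highest of the 3.

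The galectin gene lgals9l1 was at 10.04 on the naive, 8.73 on the fear-conditioned and 9.15 on the sleep-deprived array. The progranulin gene grna.1, a lysosomal regulator, was at 8.56, 7.54 and 6.89. The pore-forming protein gene mpeg1.1, a defining macrophage marker in zebrafish, was at 8.74, 8.01 and 7.81. All 3 were brightest on the naive array. The remaining 5 were the lysosomal protease genes lgmn (-0.72) and ctsba (-0.61), the immunoglobulin receptor chain gene fcer1g (-0.68), the colony-stimulating factor receptor gene csf3r (-0.63) and spi1b (-0.62), the transcription factor of the myeloid lineage.

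Paralogues were close to 0 or above it. The second perforin gene mpeg1.2 was at 0.20, grna.2 at 0.09, grnb at -0.02 and lgals9l3 at -0.03. The growth factor receptor gene csf1ra, on which microglia depend, was at 8.31 on the naive and 8.15 on the fear-conditioned array. Against the direction of the list stood ptprc, the leukocyte-wide CD45 gene, at 5.86 and 6.72. The chemokine receptor gene ccr2 was at 4.08 and 2.87, the latter below the dim limit, and the chemokine gene ccl34b.4 at 7.75 and 6.72. Of 29 genes of neutrophils and T cells, csf3r was the 1 at least 1.5-fold apart.

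Single genes that present antigen were at least 2-fold apart in both directions. Of 24 kept, 2 were lower and 1 was higher by 2-fold or more, against 0.184% and 0.245% over all kept genes. In the list 12 were below 0 and 6 above. The class II gene mhc2daa was at 8.64 on the naive, 7.43 on the fear-conditioned and 7.95 on the sleep-deprived array, and the class I gene mhc1zba at 9.22, 8.20 and 8.38. The class I gene mhc1uba ran the other way, at 8.21, 9.22 and 9.57. Class I and II genes of zebrafish differ between individual haplotypes and strains, and the haplotypes of these fish were not given in the sources used here.

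The common partners lay between: the class I light chain gene b2m was at -0.37 and the class II chaperone genes cd74a and cd74b at -0.31 and -0.54. Over 49 interferon response genes the median was 0, with 23 below 0 and 6 above. Lower by at least 1.5-fold were 3, the antiviral genes mxa (5.99 naive, 5.11 fear-conditioned) and rsad2 (6.16 and 5.53) and the transcription factor gene irf7 (7.31 and 6.59). None of the 49 was at least 1.5-fold higher.

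**Figure D5:**
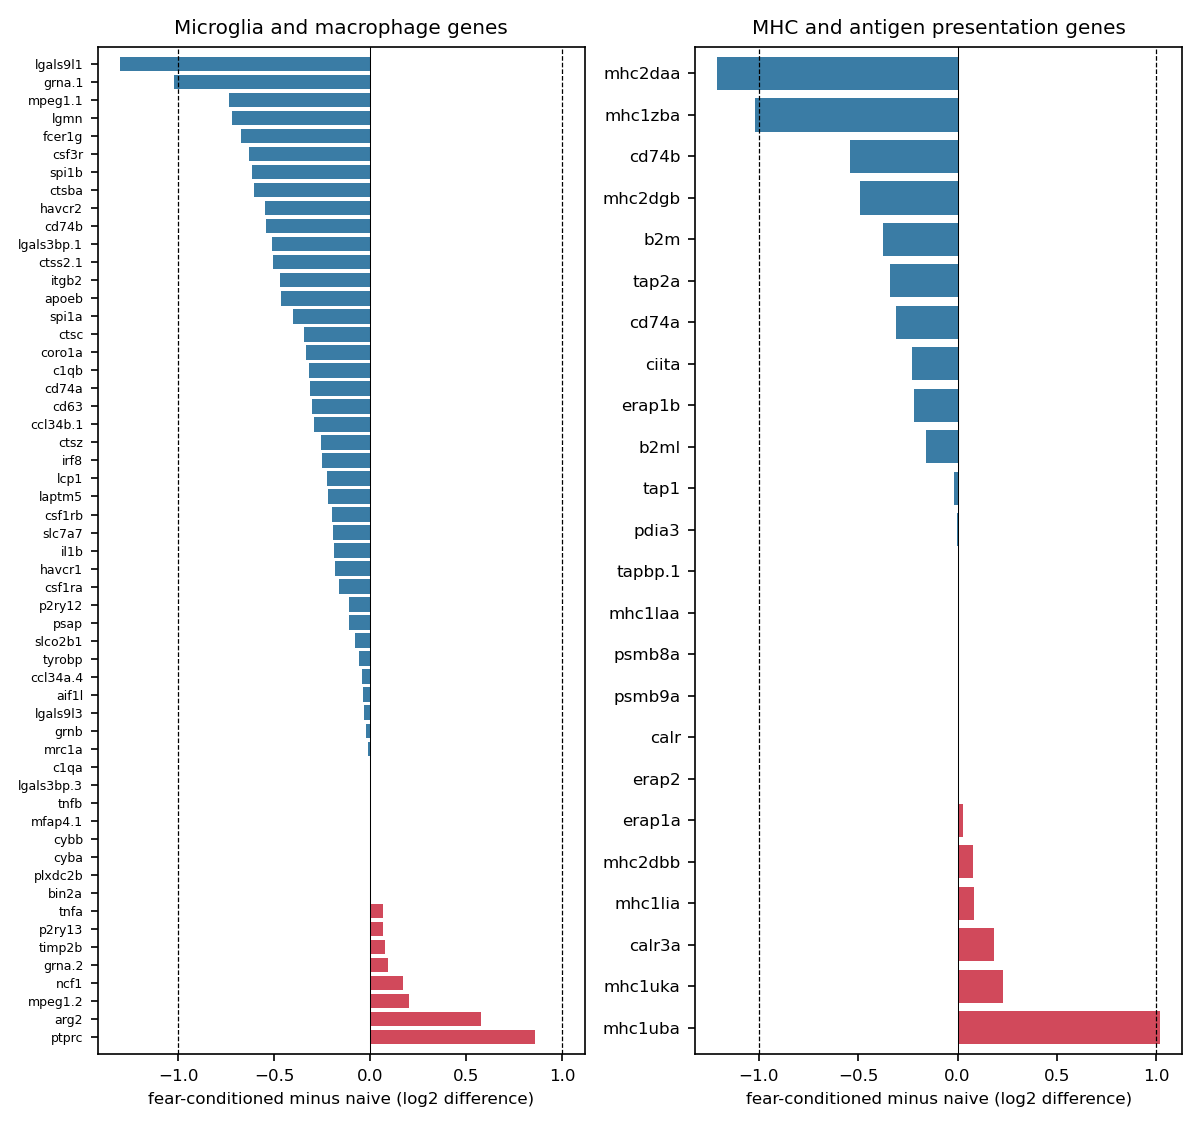
Difference between the fear-conditioned and naive arrays (log2) of the 55 microglia and macrophage genes (left) and the 24 MHC and antigen presentation genes (right), 1 bar per gene with bars starting at 0, blue below and red above it; dashed lines mark 2-fold. Bars to the left outnumber those to the right by 39 to 8 in microglial genes, and mhc1uba stands opposite mhc2daa and mhc1zba.

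The most negative named gene was ptgr1.1, a prostaglandin reductase that breaks down eicosanoids and reactive aldehydes, at 7.23 on the naive, 4.62 on the fear-conditioned and 6.73 on the sleep-deprived array. The adjacent copy, ptgr1.2, was at 4.15, 3.54 and 4.09, and the pair lay among the 8 neighbouring pairs with both genes at least 1.5-fold apart in the same direction. Next came traf3ip2l, a gene like the adaptor of interleukin 17 receptors, at 7.44, 5.27 and 6.41, with its 2 probe sets at -2.40 and -1.95. Both genes were higher on the sleep-deprived than on the fear-conditioned array.

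The vitamin D inactivating hydroxylase gene cyp24a1 was at 8.22 on the naive, 6.45 on the fear-conditioned and 5.37 on the sleep-deprived array. It is the classic target of the vitamin D receptor, whose gene vdra was at 8.21 and 8.20 and vdrb at 7.43 and 7.23, and the activating hydroxylase gene cyp27b1 was at 0.04. Among 15 vitamin D genes cyp24a1 was the 1 at least 1.5-fold lower and gc, which encodes the carrier protein of vitamin D, the 1 higher.

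Other lower genes had varied roles. The metalloproteinase inhibitor gene timp4.3 was at 8.75 and 7.52 and the membrane progestin receptor gene paqr8 at 5.36 and 4.13. The homeobox gene otx5, which acts in the pineal organ and retina, was at 5.14 on the naive, 4.13 on the fear-conditioned and 5.37 on the sleep-deprived array. Pineal opsin exorh was at 6.58 and 6.78 and the melatonin synthesis gene aanat2 at 5.89 on both, so otx5 was the 1 gene of 56 in the photoreceptor and pineal list at least 1.5-fold apart. The glutamylamine cyclotransferase gene ggact.3 was at 4.77 on the naive array and 3.28, below the dim limit, on the fear-conditioned one. Of the other genes among the 25 most negative, tuba4l, tmem14cb, tpmt.1, igldcp and rab38c lay between -0.89 and -1.17, and rab38c was lowest on the sleep-deprived array, at 4.64.

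The antioxidant and hypoxia lists each had a few members at least 1.5-fold apart in both directions. Over all genes 0.830% were higher and 0.763% lower at that threshold. In 52 genes of the Nrf2 pathway and antioxidant defence, 3 were higher and 4 lower by 1.5-fold or more, the former being mgst3a, a microsomal glutathione transferase gene (7.09 and 8.15), prdx1 (0.69) and keap1a (0.60). The latter were ptgr1.1, ggact.3, mgst1.1 (-0.63) and ptgr1.2. On the fear-conditioned array ggact.3 was below the dim limit and ptgr1.2 next to it, so the size of these differences is uncertain. In 50 hypoxia-response genes, 2 were higher and 2 lower by 1.5-fold or more, with 17 above 0 and 24 below. The most negative was hif1al2, which resembles the gene of the hypoxia-inducible factor, at 7.94 on the naive and 7.08 on the fear-conditioned array, and higd1a, a hypoxia-induced mitochondrial gene, was at 8.01 and 8.66. The insulin-like growth factor binding protein paralogues were opposed, igfbp1a at 7.51 and 8.54 and igfbp1b at 6.54 and 5.75. The astroglial filament gene gfap was at 8.30 on the naive, 9.05 on the fear-conditioned and 7.39 on the sleep-deprived array, while 17 of 32 radial astroglia genes lay below 0 and 10 above, with mfge8a at -0.59. In myelin and oligodendrocyte genes gpr17, of immature cells, was at 0.73 and enpp6, of newly forming ones, at -0.65. Of 22 red blood cell genes the beta globin gene hbba2 was the 1 at least 1.5-fold apart, at 5.66 and 6.54, and alas2, the heme synthesis gene of red cells, was at 7.64 and 7.57.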

How the data were processed

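RNA was isolated with Trizol and its fragmented sense cDNA was given a biotin label with the GeneChip WT terminal labelling kit, per the labels' protocols. The authors deposited 1 log2 value per probe set and array, from 0.61 to 13.4. The log2 reading rests on that range; the normalization method and genome build were not given in the sources used here. Each array had a median of 4.99, so a shift of all genes alike could not be seen.

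Of 75212 probe sets, 20806 had 1 symbol, 855 several and 53551 none in the platform annotation, which can be old. Symbols were updated by Entrez identifier for 20323 through a RefSeq table of assembly GRCz12tu, used for names and gene order only, and 483 were kept. Probe sets were averaged per gene, and genes were counted at 2-fold and 1.5-fold differences between the fear-conditioned and naive arrays. Since each group holds 1 array, no test was run.

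Named are the 25 most positive and 25 most negative genes without clone or locus names, 1 of which is not reported in the text; list members at least 1.5-fold apart, up to 8 per list and direction; up to 2 defining members per list; paralogues; and a short set of genes known from learning, stress, arousal, glia and leukocytes. The comparison, rules and 49 lists were chosen with earlier results of these data known, and the Hox list and some further list members were added after their values were seen. Counting was tested on simulated data. Alternatives were centring, quantile normalization, the brightest probe set, other dim filters and thresholds, and counts without tissue lists or clone names. Python 3.11.15, pandas 2.3.3, NumPy 2.4.6 and matplotlib 3.10.9 were used.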

Additional observations from a re-analysis of the deposited data

Results flagged for a closer look

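Probe sets without a gene name in the annotation used here, which entered none of the counts of genes, also differed between the arrays. Of 37914 of them that reached the dim limit, 724 were at least 2-fold higher on the fear-conditioned than on the naive array (1.91%) and 690 at least 2-fold lower (1.82%). Over kept genes the shares were 0.245% and 0.184%, and why they differ was not tested. The unnamed probe sets are not averaged per gene, but most kept genes also rest on a single probe set, with 1275 of 17958 on more. The unnamed probe sets had a median naive signal of 5.29, against 6.64 over kept genes. The most positive, probe set 13298796, was at 4.60 on the naive, 9.05 on the fear-conditioned and 7.77 on the sleep-deprived array. The most negative, 13178916, was at 5.88, 1.64 and 3.93 in the same order. What they measure was not analysed here.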

How the results depend on the processing

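With 44 genes at least 2-fold higher and 33 lower as reported, counts lay between 41 and 47 higher and between 29 and 36 lower under centring, quantile normalization, the brightest probe set, no dim filter, a filter at the overall median, and dim values set to the limit. A 1.5-fold threshold gave 149 and 137. Without the tissue lists 28 were higher and 32 lower, and without clone and locus names, a setting added once the values were known, 38 and 21. With its brighter probe set scg5 turned to -0.41, and with dim values set to the limit ccr2 was at -0.62, short of 2-fold. The other 395 of 397 values of named genes stayed on the same side of 2-fold. Among them, some values at or close to 0 did not keep their sign, and crhb went from -0.15 to 0 with its brighter probe set. Not kept under an alternative were 5 named genes. List medians moved by at most 0.1 in 291 of 294 cases. The others were the tooth list (0.11 without a filter, 2.54 with a filter at the overall median) and the skin list (0.35 with that filter). Some members, such as scpp7, ambn, enam and epcam, pass that filter only through the fear-conditioned array, so its higher medians are not read as results. No paired analysis was possible because each group holds 1 array. No replicate could be left out, and signal near the dim limit makes the size of differences there uncertain.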

Other observations

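The exactly equal values became rarer with brightness. With the kept genes ordered by mean signal and divided into groups of 4490, 4489, 4489 and 4490, from dim to bright, they made up 64.1%, 52.1%, 40.1% and 28.4%. In the same order, 16, 16, 7 and 5 genes were higher on the fear-conditioned array by 2-fold or more, and 14, 6, 7 and 6 were lower.

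Symbols with a tandem-copy suffix, such as ptgr1.1 or timp4.3, made up 2.16% of kept genes. They were 1 of the 44 genes at least 2-fold higher and 5 of the 33 at least 2-fold lower.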
